A study of Rattus norvegicus with 6 samples.

Results

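The genes described here are 39 genes of DNA replication and of the step from G1 into S phase of the cell cycle. The members were listed by gene name for their known roles, with earlier results of these data known, and no threshold on their counts was used. Of the 39 names, 38 had a row among the 18077 gene rows of the count tables, and E2f1, a transcription factor of the same step, was not analysed here. Cdc45 was the 1 member name with more than 1 row and was read from the row with the higher mean count. All 38 members passed the low-count filter in both comparisons below.

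Replication begins in G1, when the origin recognition complex, Cdc6 and Cdt1 load the ring of Mcm2 to Mcm7 onto DNA. In S phase Cdc45, the GINS complex and Mcm10 turn that ring into a moving helicase, primase and the DNA polymerases copy the strands, the sliding clamp Pcna and its loader keep the polymerases on the template, and Fen1 and Lig1 finish the lagging strand. Cyclin E with its kinase drives entry into S phase, and E2F transcription factors, held in check by the retinoblastoma family, switch on many of these genes. Rat heart muscle cells stop dividing soon after birth, and replication genes are known to decline in the heart over that time.

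RNA was taken from cultures labelled as neonatal rat cardiomyocytes, the contracting muscle cells of the heart, isolated from pups of 1 to 3 days. The protocol describes pre-plating and a medium with serum and BrdU, a thymidine analog that dividing cells build into their DNA, both meant to limit fibroblasts. Every culture was exposed for 24 h to palmitic acid at 500 µM, a saturated fat component used to load cells with lipid, and was harvested at 48 h. The 2 groups of 3 libraries are Ad-GFP, an adenovirus with green fluorescent protein whose treatment label is WT, and Ad-RNF128, an adenovirus labelled as overexpressing the ubiquitin ligase gene RNF128. The protocol spells the overexpressed gene RNF28 in 1 place and RNF128 in another, and gives no promoter for the vectors. No label names a strain, separate litters or batches, so p-values measure only the spread between these libraries, which may be technical.

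Library totals ran from 16352843 to 21708973 counts. Ad-GFP replicate 1 stood apart from the rest, with Spearman correlations over genes of 0.776 to 0.818 with the other 5 libraries, which had at least 0.964 among themselves. Rnf128 had at most 3 counts in any library, so its counts do not bear out the Ad-RNF128 label. Rnf157, another RING ubiquitin ligase gene, was instead at 1923, 2553 and 2090 CPM (counts per 1000000 counts of the library) in the libraries labelled Ad-RNF128, in replicate order, against 22.3, 39.6 and 40.4 CPM in Ad-GFP. Every direction below is one between libraries so labelled. Markers of cardiomyocytes were low. Myh6, the fast cardiac myosin, was at 16.0, 13.4 and 11.1 CPM in the Ad-GFP libraries and at 14.3, 10.8 and 0.104 CPM in those labelled Ad-RNF128. Tnnt2, cardiac troponin T, had 13.3, 342 and 350.4 CPM against 57.4, 42.3 and 34.0 CPM. Summed over the 11 cardiomyocyte markers with a row, the level was 77.7, 398 and 395 CPM against 119, 87.5 and 35.4 CPM. Most of the sum in Ad-GFP replicates 2 and 3 was Tnnt2, which was the 1 marker of 9 tested that passed in the 5 libraries described below, and most of the others, like Myh6, were low in Ad-RNF128 replicate 3 alone. Over the 9 fibroblast markers it was 3243, 38420 and 40050 CPM against 11450, 10540 and 11070 CPM, while Pdgfra, Dcn, Lum and Tcf21, which mark cardiac fibroblasts, were each under 3 CPM in every library. Myod1, a skeletal muscle factor, was at 63.3, 50.5 and 50.5 CPM against 25.3, 32.7 and 31.0 CPM, and the 8 skeletal muscle markers summed to 78.3, 102.7 and 105 CPM against 47.5, 49.8 and 49.55 CPM. The 5 endothelial markers summed to at most 7.78 CPM and the 6 leukocyte markers to at most 34.55 CPM in any library, most of the latter from Cd14, a gene not limited to leukocytes, with Ptprc at or near 0. The 4 smooth muscle markers summed to 4694, 5240 and 5826 CPM against 5590, 5020 and 5169 CPM. Of these Myh11, smooth muscle myosin, rose in Ad-RNF128 against Ad-GFP replicates 2 and 3 (log2 change 1.57 ± 0.11, edgeR adjusted p = 1.61e-08), Tagln rose by 0.20 ± 0.07, Acta2 fell by 0.38 ± 0.08 and Cnn1 did not pass. In bulk RNA, fewer cells of a type and less RNA per cell cannot be told apart. The skeletal muscle and fibroblast sums, Tnnt2 and Acta2 were lower, and Myh11 and Tagln higher, in Ad-RNF128 than in Ad-GFP replicates 2 and 3. Not every marker followed its sum. Of 8 skeletal muscle markers tested 6 fell, but Mymk rose (log2 change 1.26 ± 0.21, edgeR adjusted p = 1.34e-04). Of 8 fibroblast markers tested 5 fell, and Col1a1, Col1a2 and Col3a1 made up most of the sum. Thy1 was at 224 and 251 CPM against 305, 287 and 301 CPM and did not pass. The part of all these markers in the results below was not tested.

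The replication and G1/S genes were lower in the 3 libraries labelled Ad-RNF128 than in Ad-GFP replicates 2 and 3, by small amounts. In these 5 libraries 26 of the 38 members fell, 1 rose and 11 did not pass (edgeR's quasi-likelihood test on counts, Benjamini-Hochberg adjusted p under 0.05 over all 13173 genes tested). Of all genes tested 28.0% fell and 28.9% rose, so the members' share of falls was above that background and their share of rises below it. The median log2 change of the members was -0.31, against 0.01 over all genes, and the 26 that fell ranged from -0.91 to -0.23. None fell by a log2 change of 1 or more, which 3.79% of all genes did. In CPM, 19 members had every Ad-RNF128 library below both Ad-GFP libraries, against 23.6% of all genes, and 4 had every one above them, against 48.7%. The share of all counts that the 38 members took together was 0.311% and 0.295% for Ad-GFP replicates 2 and 3, and 0.251%, 0.261% and 0.274% for Ad-RNF128 replicates 1 to 3. These shares did not overlap between the groups, and in Ad-GFP replicate 1 the share was 0.0915%.

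The size of this difference depended on how the libraries were scaled. TMM scaling, used for the values above, gave the Ad-RNF128 libraries factors of 1.04 to 1.05 and the 2 Ad-GFP libraries 0.955 and 0.921. With library totals alone the median of all genes moved from 0.01 to 0.17 and that of the members from -0.31 to -0.16. Then 16 members fell, against 18.3% of all genes, and 4 rose, against 40.7%. The 16 were Mcm4, Mcm6, Mcm7, Gins1, Gins3, Mcm10, Rfc3, Pola1, Pold1, Pole, Lig1, Rrm1, Rrm2, Tk1, Dut and Ccne1, and the 4 were Cdt1, Rfc1, Prim1 and Fen1. The 10 lower calls lost in that scaling had log2 changes of -0.32 to -0.08 there, with edgeR adjusted p of 0.0624 to 0.452. Without Ad-RNF128 replicate 1, 2 or 3, the TMM-scaled fit gave 22, 25 and 26 members lower, with medians of -0.25, -0.30 and -0.34, in that order.

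**Figure D1:**
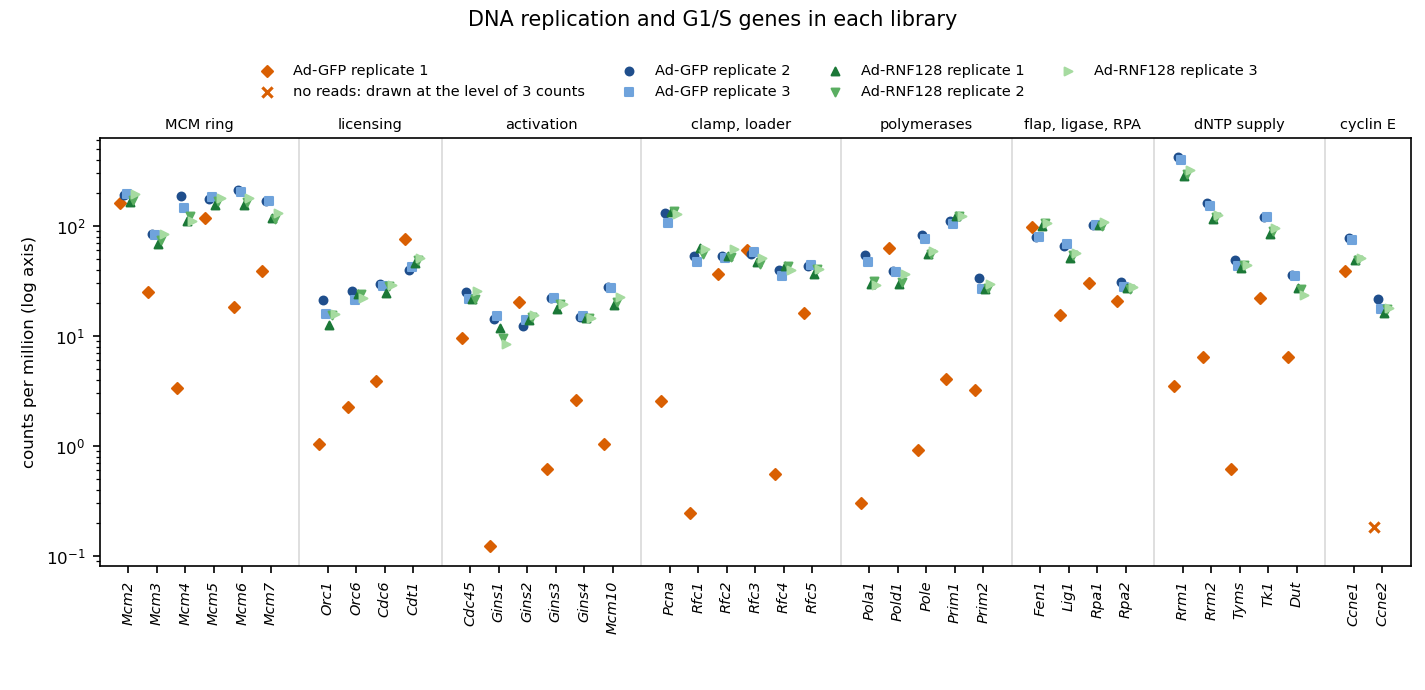
CPM of each replication and G1/S gene (log axis) in the 6 libraries, grouped by role, with Ad-GFP replicate 1 as orange diamonds. The 5 other libraries lie close together for each gene, while Ad-GFP replicate 1 is the lowest library for 33 of 38 genes.

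The MCM ring, the core of the replicative helicase, fell in every subunit. All 6 genes, Mcm2 to Mcm7, passed as lower, where 28.0% of all genes did, with a median log2 change of -0.38 and values from -0.70 to -0.26. Mcm4 was at 188 and 146 CPM in Ad-GFP replicates 2 and 3, at 109.7, 122 and 111 CPM in Ad-RNF128 replicates 1 to 3, and at 3.36 CPM in Ad-GFP replicate 1. All Ad-RNF128 libraries lay below both of these controls, and Ad-GFP replicate 1 lay far below all of them. Its log2 change was -0.70 ± 0.08 (SE, edgeR adjusted p = 6.54e-06). Mcm7 was at 168 and 167 CPM in the 2 controls, at 117, 115 and 131 CPM in Ad-RNF128, and at 38.6 CPM in Ad-GFP replicate 1. The groups again did not overlap, and the log2 change was -0.62 ± 0.07 (edgeR adjusted p = 3.42e-06). Mcm6 (-0.47 ± 0.07) also had groups apart. Mcm2, Mcm3 and Mcm5 changed least, by -0.28, -0.30 and -0.26, their CPM overlapped between the groups, and none of the 3 passed with library totals alone. Mcm5 also lost its call without Ad-GFP replicate 3 (-0.22, edgeR adjusted p = 0.0565).

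Promoters of 5 MCM genes are shown because their calls can be set beside a shared sequence, the E2F binding word. The word was searched as TTTGGCGC, TTTGCCGC, TTTCGCGC or TTTCCCGC on both strands. Each line gives 60 bases around the words nearest the start of the gene as RefSeq annotates it, 5′ to 3′ on the gene's strand, with the word, or overlapping words on both strands, in capitals. The window of Mcm6 covers positions -161 to -102 from the start, and the other 4 lie between -78 and 30. Coordinates are on GRCr8, the build of the RefSeq promoter table, not on the build of the counts. The 5 windows are chr4:122918071-122918130 (minus strand) for Mcm2, chr9:30733717-30733776 (minus strand) for Mcm3, chr19:13488779-13488838 (plus strand) for Mcm5, chr13:42404454-42404513 (minus strand) for Mcm6 and chr12:22163197-22163256 (minus strand) for Mcm7.
Mcm2: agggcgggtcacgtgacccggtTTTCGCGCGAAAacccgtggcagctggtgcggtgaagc
Mcm3: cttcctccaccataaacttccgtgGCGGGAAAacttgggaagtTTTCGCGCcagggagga
Mcm5: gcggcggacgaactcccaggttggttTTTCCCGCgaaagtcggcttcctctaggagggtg
Mcm6: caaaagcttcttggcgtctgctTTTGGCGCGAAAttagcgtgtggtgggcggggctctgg
Mcm7: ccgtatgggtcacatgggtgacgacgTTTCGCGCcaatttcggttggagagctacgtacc
In Mcm2 and Mcm6 the words on the 2 strands overlap in 1 palindrome-like block. The last base of the word shown for Mcm7 is also the first base of a CCAAT box, the site of the general promoter factor NF-Y. Mcm4 has no entry in the table.

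Of the licensing genes, which mark origins and load the ring, 2 of 4 fell and none rose, against 28.0% and 28.9% of all genes. Orc1, the largest subunit of the origin recognition complex, was at 21.1 and 15.7 CPM in Ad-GFP replicates 2 and 3, at 12.6, 15.5 and 15.8 CPM in Ad-RNF128, and at 1.04 CPM in Ad-GFP replicate 1. The highest Ad-RNF128 library lay just above the lower control, and the log2 change was -0.47 ± 0.13 (edgeR adjusted p = 0.00586). Cdc6, the ATPase that recruits the ring, was at 29.8 and 28.3 CPM, then 24.7, 28.7 and 28.8 CPM, and 3.91 CPM in Ad-GFP replicate 1. Its groups overlapped, with a log2 change of -0.23 ± 0.09 (edgeR adjusted p = 0.0323), the weakest of the 26 calls. Both calls were lost with library totals alone and without Ad-GFP replicate 2 (Orc1 -0.28, edgeR adjusted p = 0.123; Cdc6 -0.22, 0.0988). That of Cdc6 was also lost without Ad-GFP replicate 3 (-0.25, edgeR adjusted p = 0.0737), without Ad-RNF128 replicate 1 (-0.15, 0.172), with DESeq2 (-0.24, 0.0724) and with the replicate block (-0.17, 0.0864). Orc6 (-0.15 ± 0.09) and Cdt1 (0.10 ± 0.08), the partner of Cdc6 in loading, did not pass. Cdt1 had every Ad-RNF128 library above both controls in CPM, and passed as higher with library totals alone (log2 change 0.26, edgeR adjusted p = 0.0101).

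Among the 6 genes that turn the loaded ring into an active helicase 3 fell, namely Gins1, Gins3 and Mcm10, and none rose. Over all genes tested 28.0% fell and 28.9% rose. Mcm10, which helps the helicase leave the origin, was at 27.6 and 27.1 CPM in the 2 controls, at 19.0, 20.5 and 22.6 CPM in Ad-RNF128 and at 1.04 CPM in Ad-GFP replicate 1 (log2 change -0.55 ± 0.09, edgeR adjusted p = 1.1e-04). Gins1, a subunit of the 4-part GINS complex, was at 14.2 and 15.1 CPM, then 11.7, 9.58 and 8.52 CPM, and 0.122 CPM in Ad-GFP replicate 1 (-0.72 ± 0.13, edgeR adjusted p = 2.79e-04). For both genes the 3 Ad-RNF128 libraries lay below the 2 controls. The subunits of GINS did not all change by the same amount: Gins3 fell by 0.38 ± 0.09, Gins4 had -0.22 ± 0.10 and Gins2 0.01 ± 0.11. Cdc45, the other partner of the active ring, had -0.16 ± 0.10 and did not pass.

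The sliding clamp and its 5-subunit loader had a median log2 change of -0.02, and of 0.14 with library totals alone. Of these 6 genes 2 fell and 4 did not pass, a share of falls near the 28.0% of all genes. Rfc3 was at 55.1 and 58.0 CPM in the 2 controls, at 46.5, 44.6 and 51.3 CPM in Ad-RNF128, and at 60.9 CPM in Ad-GFP replicate 1, above every other library (-0.41 ± 0.08, edgeR adjusted p = 4.71e-04). Rfc5 was at 43.0 and 44.4 CPM, then 36.2, 40.3 and 40.2 CPM, and 16.1 CPM in Ad-GFP replicate 1 (-0.32 ± 0.08, edgeR adjusted p = 0.00257). Both had groups that did not overlap within the 5 libraries, and the call of Rfc5 was lost with library totals alone. Rfc1, Rfc2 and Rfc4 had 0.11 ± 0.08, -0.04 ± 0.08 and 0.02 ± 0.08. Pcna, the clamp itself and a common marker of proliferation, is given as well, chosen after its values were seen. It was at 130.3 and 107 CPM in the 2 control libraries, at 133, 136 and 128 CPM in Ad-RNF128 and at 2.57 CPM in Ad-GFP replicate 1, with a log2 change of 0.01 ± 0.07 (edgeR adjusted p = 0.915).

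The catalytic subunits of the replicative polymerases held the largest fall of the list. Pola1, the catalytic subunit of the polymerase that starts each new strand, was at 54.7 and 46.6 CPM in Ad-GFP replicates 2 and 3, at 29.4, 31.5 and 29.0 CPM in Ad-RNF128, and at 0.306 CPM in Ad-GFP replicate 1. Every Ad-RNF128 library lay well below both controls, and the log2 change was -0.91 ± 0.08 (edgeR adjusted p = 1.91e-07). Pole, the catalytic subunit of the leading-strand polymerase, was at 82.5 and 75.2 CPM, then 56.0, 56.0 and 59.6 CPM, and 0.917 CPM in Ad-GFP replicate 1 (-0.62 ± 0.07, edgeR adjusted p = 2.65e-06). Pold1, that of the lagging-strand polymerase, fell by 0.41 ± 0.09. The 2 primase subunits, which lay down the RNA primers with Pola1, had different values: Prim2 fell by 0.26 ± 0.09, and Prim1 had 0.03 ± 0.06. The call of Prim2 was lost with library totals alone, with DESeq2 (-0.27, adjusted p = 0.0547), and without Ad-GFP replicate 2 (-0.10, edgeR adjusted p = 0.415), Ad-RNF128 replicate 1 (-0.21, 0.129) or Ad-RNF128 replicate 2 (-0.23, 0.0918). Prim1 was above both controls in every Ad-RNF128 library, and passed as higher with library totals alone (0.19, edgeR adjusted p = 0.0182).

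The 250 bases before the start of Pola1, the gene with the largest fall, are at chrX:62342356-62342605 (minus strand, GRCr8). An E2F word and a CCAAT box, both read on the opposite strand, are in capitals.
Pola1: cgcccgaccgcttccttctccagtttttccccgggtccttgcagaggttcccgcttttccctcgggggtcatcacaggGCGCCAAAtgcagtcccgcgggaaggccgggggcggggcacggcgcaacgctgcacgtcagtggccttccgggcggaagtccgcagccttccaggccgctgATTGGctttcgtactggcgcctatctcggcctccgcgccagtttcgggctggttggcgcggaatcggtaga

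Fen1, the nuclease that trims the flap of each lagging-strand fragment, was the member that rose. It was at 79.3 and 79.1 CPM in Ad-GFP replicates 2 and 3, at 99.7, 105.5 and 105.4 CPM in Ad-RNF128 and at 97.3 CPM in Ad-GFP replicate 1. In CPM Ad-GFP replicate 1 lay between the groups, but with TMM scaling over all 6 libraries it was above every other library. In the comparison of 5 libraries the Ad-RNF128 libraries lay above both controls in CPM. The log2 change was 0.23 ± 0.07 (edgeR adjusted p = 0.00781), and the call was lost without Ad-GFP replicate 2 (0.21, edgeR adjusted p = 0.0566). Lig1, the ligase that seals the same fragments, was at 66.2 and 68.5 CPM, then 51.0, 54.5 and 57.2 CPM, and 15.7 CPM in Ad-GFP replicate 1 (-0.47 ± 0.07, edgeR adjusted p = 7.94e-05). Of the subunits of RPA, which coats single-stranded DNA, Rpa2 fell by 0.26 ± 0.08, a call lost with library totals alone and without Ad-GFP replicate 2 (-0.23, edgeR adjusted p = 0.0603), and Rpa1 had -0.12 ± 0.07 and did not pass.

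The 250 bases before Fen1, at chr1:216274397-216274646 (minus strand, GRCr8), hold neither an E2F word nor a CCAAT box, so nothing is in capitals. Pola1 and Fen1 were picked for their changes and do not stand for the list. Of the 18 members whose windows lack an E2F word, described below, 8 fell.
Fen1: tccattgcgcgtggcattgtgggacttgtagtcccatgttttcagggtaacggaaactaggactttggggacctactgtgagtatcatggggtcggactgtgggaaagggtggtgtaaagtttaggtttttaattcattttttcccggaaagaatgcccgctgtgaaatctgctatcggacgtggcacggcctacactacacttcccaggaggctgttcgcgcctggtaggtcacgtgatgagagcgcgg

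All 5 genes that supply deoxynucleotides fell, where 28.0% of all genes did, with a median log2 change of -0.58. For 4 of the 5 every Ad-RNF128 library lay below both controls in CPM, against 23.6% of all genes. Rrm1, the large subunit of ribonucleotide reductase, was at 419 and 399 CPM in the 2 controls, at 284, 299 and 319 CPM in Ad-RNF128 and at 3.49 CPM in Ad-GFP replicate 1 (-0.60 ± 0.07, edgeR adjusted p = 2.83e-06). Rrm2, the small subunit made in S phase, was at 161 and 153 CPM, then 116, 120.2 and 125 CPM, and 6.42 CPM in Ad-GFP replicate 1 (-0.54 ± 0.06, edgeR adjusted p = 5.82e-06). Both subunits thus lay lower in all 3 Ad-RNF128 libraries. Tk1, the thymidine kinase of S phase, fell by 0.58 ± 0.07 and Dut, which removes dUTP, by 0.61 ± 0.08. Tyms, which makes dTMP, fell by 0.24 ± 0.08, and its call was lost without Ad-GFP replicate 2 (-0.17, edgeR adjusted p = 0.126), on leaving out Ad-RNF128 replicate 1 (-0.20, 0.0792) and with library totals alone.

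Both cyclin E genes, which bring Cdk2 into action before S phase, fell, where 28.0% of all genes did. Ccne1 was at 76.9 and 74.3 CPM in the 2 controls, at 49.1, 49.1 and 51.6 CPM in Ad-RNF128 and at 39.2 CPM in Ad-GFP replicate 1 (-0.75 ± 0.07, edgeR adjusted p = 2.36e-07). The 3 Ad-RNF128 libraries agree within 3 CPM and lay well below both controls, yet above Ad-GFP replicate 1. Ccne2 was at 21.7 and 17.5 CPM, then 16.3, 17.7 and 17.9 CPM, and had no read in Ad-GFP replicate 1. Its groups overlapped, with a log2 change of -0.33 ± 0.10 (edgeR adjusted p = 0.0126) that was lost without Ad-GFP replicate 2 (-0.20, 0.184), on leaving out Ad-RNF128 replicate 1 (-0.27, 0.0728) and with library totals alone.

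**Figure D2:**
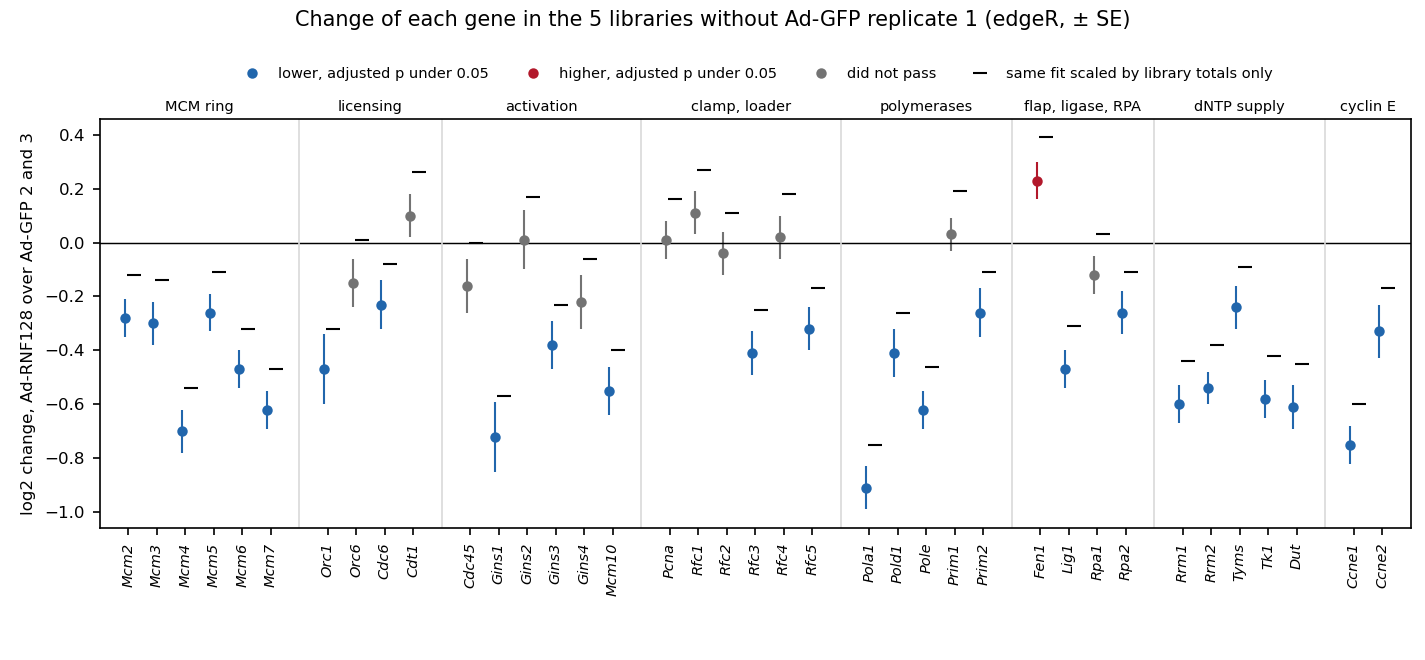
Log2 change of each member, Ad-RNF128 over Ad-GFP replicates 2 and 3 (points, ± SE from edgeR with TMM scaling), by role, with dashes for the same fit scaled by library totals only. Blue points fell, the red point (Fen1) rose, grey points did not pass, and the dashes lie above the points throughout.

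Across the roles, the MCM ring, the deoxynucleotide genes and cyclin E fell in every member, while 4 of 6 clamp genes and 2 of 4 licensing genes did not pass. Over all genes tested 28.0% fell. The differences between roles were not tested. Of the 26 lower calls, 16 were kept under every other scaling, tool, filter and left-out library run on the 5 libraries, but none met a log2 change of 1. These are the 16 named above for library totals alone.

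Other genes of the same pathway, from lists written with earlier results of these data known, were read in the same fit. Of 79 tested, 44 fell, 8 rose and 27 did not pass, where 28.0% of all genes fell and 28.9% rose. The median log2 change of the 79 was -0.27 (-0.12 with library totals alone). Library totals alone gave 32 lower and 14 higher, where 18.3% and 40.7% of all genes were. In the E2F, DP and pocket protein list 10 of 12 fell and none rose, and with library totals alone 7 fell and 1 rose. Rb1, the retinoblastoma protein that holds E2F factors in check, was at 33.4 and 26.0 CPM in the 2 controls against 19.9, 20.7 and 20.7 CPM in Ad-RNF128 (-0.68 ± 0.10, edgeR adjusted p = 2.59e-05). E2f4, a repressive E2F, was at 70.8 and 65.9 CPM, then 85.5, 78.7 and 83.6 CPM, and did not pass (0.12 ± 0.07). Ad-GFP replicate 1 had 0.795 CPM for Rb1, far below every other library, and 77.7 CPM for E2f4. The 3 pocket proteins, Rb1, Rbl1 and Rbl2, all fell, with values of -0.68, -0.45 and -0.40.

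In the list of G1/S kinases and cyclins 6 of 8 fell and Ccnd1 rose. Ccnd1, the cyclin that answers growth signals in G1, was at 351 and 376 CPM in Ad-GFP replicates 2 and 3 and at 609, 637 and 643 CPM in Ad-RNF128 (0.64 ± 0.07, edgeR adjusted p = 1.78e-06), with 199 CPM in Ad-GFP replicate 1. Cdk2, the kinase partner of cyclin E, was at 72.0 and 59.8 CPM, then 49.7, 49.0 and 51.7 CPM (-0.54 ± 0.08, edgeR adjusted p = 2.73e-05). Every Ad-RNF128 library lay above both controls for Ccnd1 and below both for Cdk2. Cdkn1a, the inhibitor p21, was at 197 and 201 CPM, then 208, 225 and 198 CPM, and did not pass (-0.08 ± 0.07). Ad-GFP replicate 1 had 3.85 CPM for Cdk2, below every other library, and 333 CPM for Cdkn1a, above every other library. Among the 8 other nucleotide supply genes 3 fell and 3 rose, against 28.0% and 28.9% of all genes. Tk2, the mitochondrial thymidine kinase, was at 22.0 and 19.4 CPM, then 44.5, 49.3 and 43.8 CPM (1.00 ± 0.09, edgeR adjusted p = 1.62e-07), but at 86.2 CPM in Ad-GFP replicate 1, and its log2 change over all 6 libraries was -0.97. Rrm2b, the ribonucleotide reductase subunit of resting cells, named after its values were seen, rose by 0.67 ± 0.12.

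Of the remaining lists, 5 of 7 other origin firing genes, 5 of 7 replication-linked ubiquitin ligase genes, 4 of 8 chromatin assembly genes, 4 of 6 fork protection genes, 3 of 11 other polymerase and loader subunits, 3 of 6 CDK inhibitor genes and 1 of 6 other licensing genes fell. Since 28.0% of all genes fell, the other polymerase and loader list and the other licensing list were near or below that background. Pold4, Orc4, Orc5, Cdkn2b, Samhd1, Rrm2b, Tk2 and Ccnd1 were the 8 genes that rose, against 28.9% of all genes. Genes of mitosis, a later phase of the cycle, fell in 11 of 11 tested (9 with library totals alone), with a median log2 change of -0.77. Mki67, a general proliferation marker, was at 350.1 and 261 CPM in the 2 controls against 213, 199 and 183 CPM in Ad-RNF128.

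**Figure D3:**
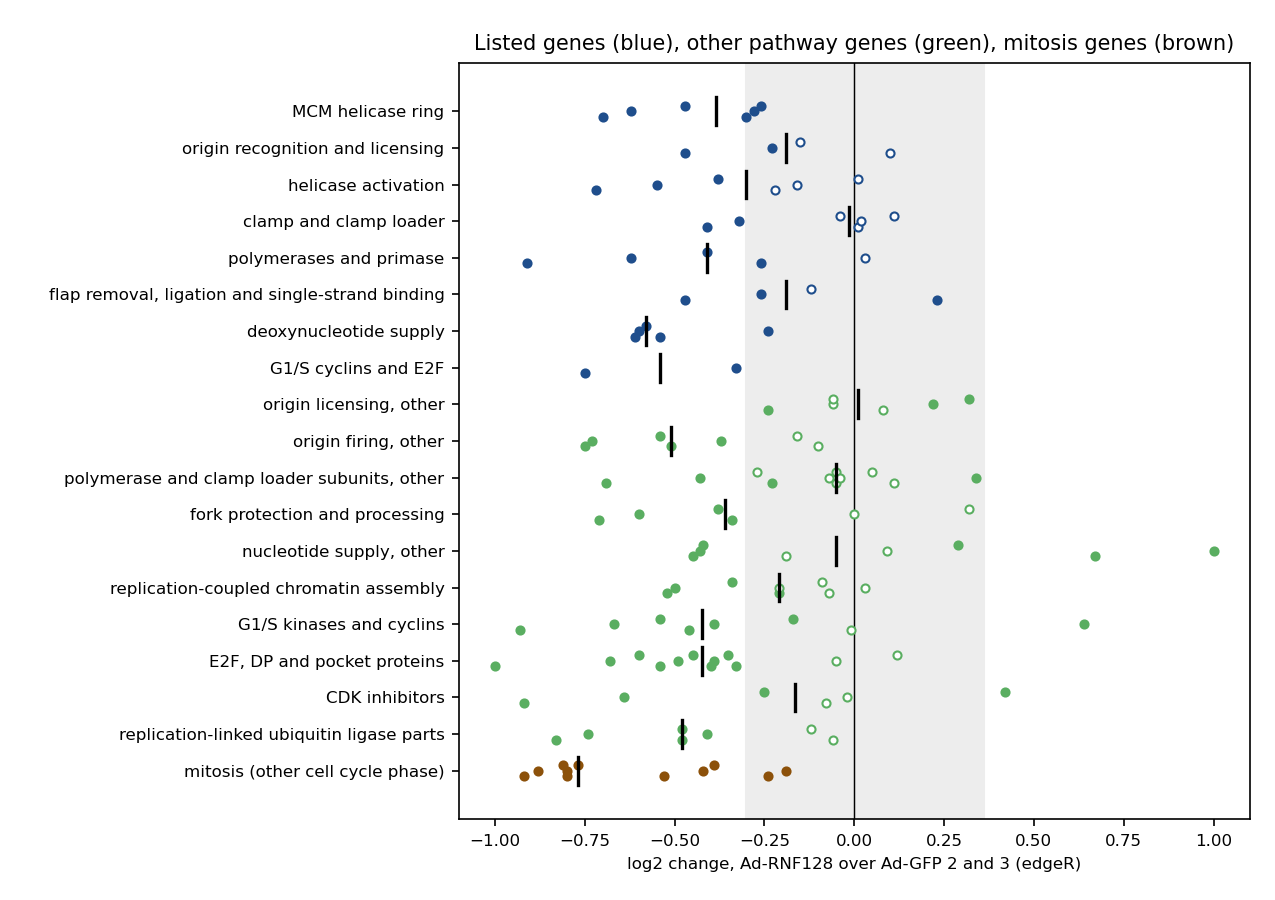
Log2 change of each gene (Ad-RNF128 over Ad-GFP replicates 2 and 3) in the member roles (blue), the other pathway lists (green) and mitosis genes (brown); filled points passed, open points did not, black bars are list medians, and the grey band spans the middle quartiles of all 13173 genes, -0.30 to 0.36. The medians of the MCM ring (-0.38), polymerase (-0.41), cyclin E (-0.54), deoxynucleotide (-0.58) and mitosis (-0.77) lists lie to the left of that band. So do those of the origin firing (-0.51), fork protection (-0.36), G1/S kinase (-0.43), E2F and pocket protein (-0.43) and ubiquitin ligase (-0.48) lists. The clamp list median is -0.02.

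With Ad-GFP replicate 1 included, as the labels group the libraries, no member passed. Over all 6 libraries edgeR called 0.0% of 12863 genes, DESeq2 and limma-voom called no member either, and the smallest edgeR adjusted p of any gene was 0.073. At an unadjusted p under 0.05, edgeR found 1 member lower, Ccne1 (log2 change -0.85, unadjusted p = 0.0341), against 2.41% of all genes, and no member higher, against 3.36%. The members' median log2 change was -0.15, against -0.02 over all genes, and it was 0.17 with library totals alone, against 0.35. Its sign therefore depended on the scaling. By role, the median was -0.28 for the MCM ring (0.04 with library totals alone), -0.04 for deoxynucleotide supply (0.13) and -0.30 for cyclin E (0.03). Orc1, Cdc6, Gins3, Prim2, Tyms and Ccne2, all called lower without Ad-GFP replicate 1, and Fen1, called higher, had the opposite sign or a value of 0 in the 6-library fit.

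In CPM, Ad-GFP replicate 1 itself held most members far below the other libraries. It was the lowest of the 6 in CPM for 33 members, where 66.0% of all genes were, and the highest for 4, Cdt1, Gins2, Rfc3 and Pold1, where 24.1% of all genes were. For 17 members it was under 0.1 times the mean of Ad-GFP replicates 2 and 3, against 36.9% of all genes, and for 10 it was within 2-fold, against 22.0%. The last 2 shares lie near those of all genes, in a library that was low for most genes. Ccne2 had no reads there and was at least 107-fold lower, taking 3 counts as the limit that a count of 0 allows. Gins1 had 2 counts, which puts the mean of the other 2 controls 120.0 times higher (95% counting interval 33.1 to 993). Pola1 had 5 counts (ratio 165, interval 70.4 to 507) and Rfc1 had 4 (ratio 203, interval 79.3 to 747). These intervals cover counting error only. By contrast, Mcm2 was at 163 CPM there, beside 192 and 194 CPM, and Mcm5 at 119 CPM, beside 177 and 182 CPM. The ring subunit Mcm4 was at 3.36 CPM. All these ratios and ranks are of CPM. TMM scaling over all 6 libraries gave Ad-GFP replicate 1 a factor of 0.4704 and the others 1.075 to 1.223, which raises its level relative to theirs. Scaled so, it was the highest library also for Mcm2, Mcm5, Rfc2, Rpa2, Fen1 and Ccne1. Subunits of 1 complex thus did not move together in that library.

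**Figure D4:**
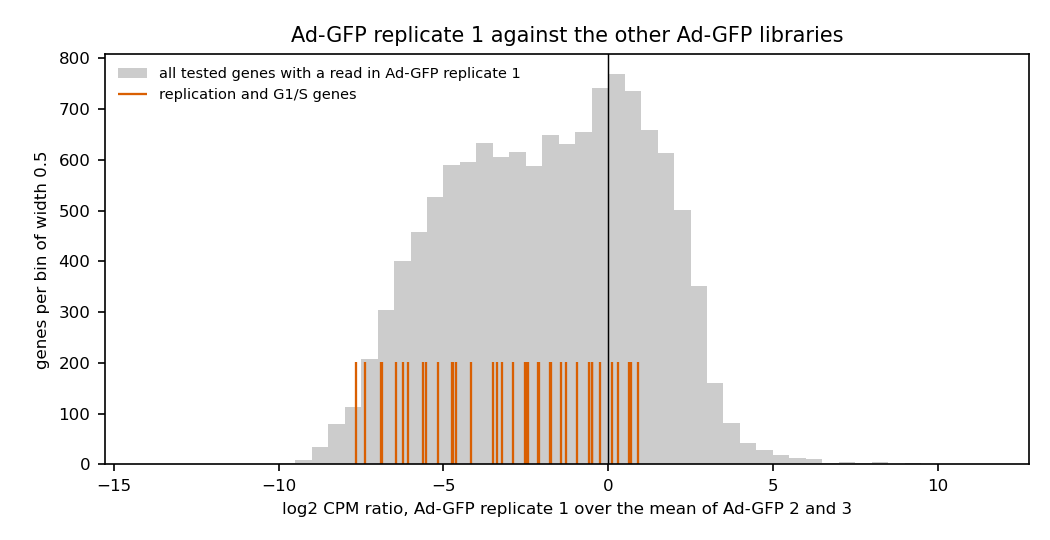
Histogram over all tested genes with a read in Ad-GFP replicate 1 of the log2 ratio of CPM in that library to the mean of Ad-GFP replicates 2 and 3, with an orange line for each replication or G1/S gene that had a read. The member lines spread over much of the histogram, and 10 of the 38 members lie within 2-fold, near 0.

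Promoter windows of 250 bases before to 50 after the gene start were found in the RefSeq table (GRCr8) for 32 of the 38 members, with no entry for Mcm4, Orc1, Cdc6, Gins4, Rrm2 and Ccne2. An E2F word stood in 14 of the 32 (43.8%), against 2.14% of all 33469 promoters of that table and 4.38% of the promoters of 9319 tested genes. CCAAT, on either strand, stood in 20 (62.5%), against 37.5% and 39.7%. TTTGAA, the core of the CHR element of many mitotic promoters, stood in 3 (9.4%), against 18.3% and 12.4%. The 14 genes held 23 E2F words, with overlapping words on both strands counted singly, 8 of the genes held more than 1, and 11 of the words began within 100 bases before the start and 6 after it.

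Of the 14 members with an E2F word 13 fell and Cdt1 did not pass, with a median log2 change of -0.40. Of the 18 without one 8 fell, Fen1 rose and 9 did not pass, with a median of -0.16. Among the 8 that fell without a word were Ccne1 (-0.75), Dut (-0.61), Rrm1 (-0.60), Tk1 (-0.58) and Mcm10 (-0.55). Of the 6 members with no promoter entry 5 fell and 1 did not pass, also with a median of -0.40. Over all genes tested 28.0% fell. A match describes these letters in this window and is not a measured binding site, and the differences between these sets were not tested. The windows printed above for Mcm2, Mcm3, Mcm5, Mcm6, Mcm7 and Pola1 are of the first set, and Fen1 is of the second.

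**Figure D5:**
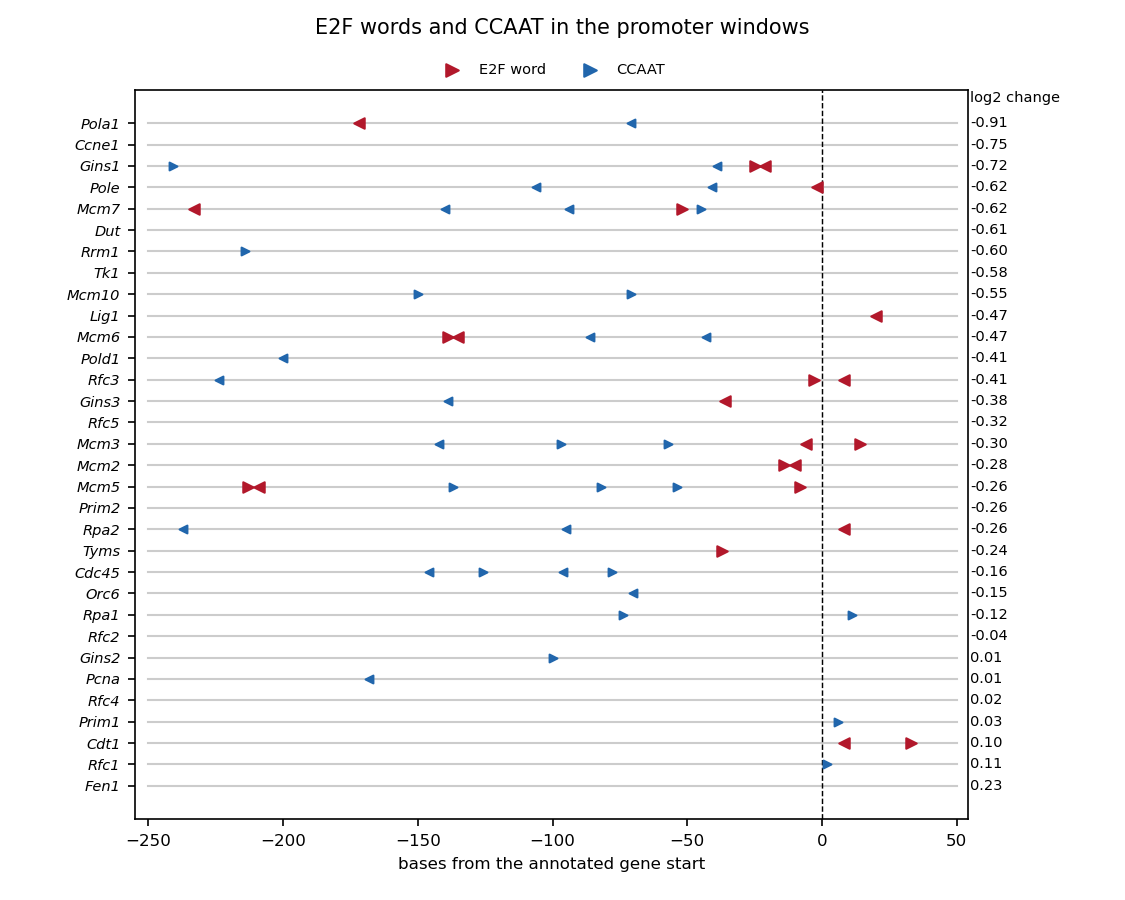
Position of E2F words (red) and CCAAT boxes (blue) in the promoter windows of 32 members, as bases from the annotated gene start, with arrowheads pointing right for the gene's strand and left for the opposite strand; rows are ordered by log2 change in the 5 libraries, printed at the right. Red marks stand in 13 genes that fell and in Cdt1, and none stands in 8 other genes that fell, in Fen1 or in 9 that did not pass.

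Counting could mix some members with neighbours. By the gene models of RefSeq, 13 of the 38 members overlap another annotated gene, which is protein-coding for 5: Gins2 with Gse1, Fen1 with Tmem258, Lig1 with Zswim9, Rrm2 with Cys1 and Ccne2 with Ints8. These overlaps are of whole gene spans on GRCr8, introns included, and shared exons were not checked. The labels and processing notes do not say whether reads were counted by strand. How far such pairs affect the values of these 5 genes is therefore not known.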

How the data were processed

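Each library has 1 deposited table of read counts by gene. The submitters' processing notes name the aligner HISAT2, the counter HTSeq 0.13.5 and, as genome, mRatBN7.2; a HISAT2 version and the strand setting are not given in the sources used here. For Ad-GFP replicate 1 the deposited table has 1 value that is not whole, 344.5, so it was handled like estimated counts and rounded. Repeated rows (106) were kept as separate features.

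From these, CPM (count times 1000000 over the library total) and edgeR 4.0.16 fits (R 4.3.3; filterByExpr, TMM, quasi-likelihood F-test, Benjamini-Hochberg over all genes, threshold 0.05) were computed, as Ad-RNF128 over Ad-GFP. The comparison of 5 libraries leaves out Ad-GFP replicate 1, so 2 controls carry it and the spread is pooled over both groups. Log2 changes are given ± SE, derived from the F statistic. Alternatives were DESeq2 1.42.0, limma-voom (limma 3.58.1), scaling by median-of-ratios factors or by totals only, no filter, a stricter one (a mean CPM of 1 and 10 counts in 3 libraries), a replicate block, each library left out, an adjusted p under 0.01 and a log2 change of at least 1.

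The members and the other lists were chosen with earlier results of these data known. CPM is printed for the 2 members of each role with the smallest p and for any that passed against its role. Of the other pathway genes, those with a log2 change of at least 1 and a mean CPM of at least 5 (at most 15), and Ccnd1, Cdkn1a, Rb1, E2f4 and Cdk2, are named. Gene names come from the tables. Pln and Myf5, 2 of the listed markers, are not analysed here. Each set of promoter words was searched in the RefSeq table by letters.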

Additional observations from a re-analysis of the deposited data

How the results depend on the processing

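In the 5 libraries, library totals alone gave 4 members higher and 16 lower, with a median log2 change of -0.16, and requiring a log2 change of at least 1 left 0 higher and 0 lower. Leaving out each library in turn gave 0 to 1 higher, 20 to 26 lower and a median of -0.34 to -0.25; the 0 came without Ad-GFP replicate 2. The other alternatives gave 1 higher, 22 to 26 lower and medians of -0.32 to -0.26. Over all 6 libraries, leaving out each library in turn gave 0 to 1 higher and 0 to 26 lower, the calls coming only without Ad-GFP replicate 1, and every other alternative gave 0 and 0. Its median of -0.15 ranged from -0.31 to 0.16 with a library left out (0.16 without Ad-GFP replicate 2, 0.12 without Ad-GFP replicate 3), and was 0.19 with limma-voom and 0.17 with library totals. In that comparison 7 of the members called in the 5 libraries reversed their sign without Ad-GFP replicate 1. Orc6, Cdt1, Gins2, Gins4 and Rpa1, which did not pass in either comparison, also changed sign. The cause was not tested. With each library left out in turn, the log2 change ran from -0.47 to 0.51 for Orc1, -0.23 to 0.38 for Cdc6, -0.38 to 0.54 for Gins3, -0.26 to 0.54 for Prim2, -0.24 to 0.78 for Tyms, -0.33 to 0.79 for Ccne2 and -0.70 to 0.23 for Fen1; the negative end, for Fen1 the positive end, is the value without Ad-GFP replicate 1. With TMM-scaled library sizes the members' share of counts was 0.195%, 0.283% and 0.274% in Ad-GFP and 0.2055%, 0.2135% and 0.2268% in Ad-RNF128, replicates 1 to 3 in order.

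Same-numbered libraries had deviations that correlated by 0.07 and 0.12 in the 5 libraries and by -0.17, 0.01 and -0.12 in all 6. The deviations are from group means, so those of the 2 Ad-GFP libraries mirror each other in the 5 libraries. In all 6, Ad-GFP replicate 1 stood apart. These values therefore cannot decide whether same-numbered libraries are pairs, and the numbers were not taken as pairs. With a replicate block edgeR called 1 member higher and 25 lower (median -0.26) in the 5 libraries, and 0 and 0 (median 0.23) in all 6. When 1 Ad-GFP library remains, it is assumed to vary like the others. Depth limits the ratios of Ccne2, Gins1, Rfc1 and Pola1 in Ad-GFP replicate 1, with 0 to 5 counts each.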
